A study of Bos indicus with 9 samples.

Results

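The 10 genes described here encode cathepsins A, B, C, D, H, K, L, S and Z and legumain, the main proteases of the lysosome. They were taken as every probe set that the array's probe table assigns to CTSA, CTSB, CTSC, CTSD, CTSH, CTSK, CTSL, CTSS, CTSZ or LGMN, which gave 15 of 23940 tested probe sets and 10 of 9135 genes with a symbol. CTSB has 6 probe sets and each other gene has 1. Expression was measured in the corpus luteum, the progesterone-secreting gland that forms from an ovulated follicle, on 9 Affymetrix bovine arrays, 1 for each cow. All cows were Nelore crossbreds (Bos indicus) aged 2 to 5 years given a progesterone device together with estradiol benzoate to align their cycles, and their glands were taken at slaughter on day 6 after ovulation. The 3 control cows received no equine chorionic gonadotropin (eCG), a mare's placental hormone that acts on the follicle-stimulating and luteinising hormone receptors of cattle. The 3 stimulated cows received 400 IU of it on day 8 of the synchronisation and the 3 superovulated cows 2000 IU on day 4. Dose and day changed together, so their parts cannot be told apart. The labels do not say how many glands of a cow were used.

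Cathepsins are made as inactive proenzymes, carried to the lysosome by mannose 6-phosphate receptors and activated by its acid. Most are cysteine proteases of the papain family, while cathepsin D is an aspartic protease, cathepsin A a serine carboxypeptidase and legumain a cysteine protease of another family that cuts after asparagine and trims other cathepsins to their mature forms. Luteal steroid-forming cells use lysosomes to free cholesterol from lipoproteins, and macrophages, which are rich in cathepsins, settle in the gland as it grows and regresses. In whole tissue, fewer cells of a type and less RNA per cell cannot be told apart.

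Signals are log2 values, and levels are compared only within a probe set, since probe sets bind with different strength. Of the 15 probe sets, 8 had digit runs that could be read in 2 ways on all 9 arrays, and each was read as a bright signal with a probability of at least 99.3%. For the luteal identity of the samples 10 steroidogenic markers were looked at, with no other tissue to compare. Their mean signal lay between 12.45 and 12.79 in control, 12.42 and 12.73 in stimulated and 12.36 and 12.70 in superovulated animals. Single markers differed from that mean, with LHCGR at 6.3 and NR5A1 at 8.3 over all 9 arrays. Epithelial markers had means of 2.97 to 3.15 in all animals but superovulated replicate 2, which had 3.73. In that animal KRT18 had 8.79, against 4.46 to 5.77 in the others, and KRT19 had 5.03, against 2.39 to 2.61. The other markers of the list did not stand out there.

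In stimulated compared with control corpora lutea, which asks what the lower dose of eCG went along with, the highest differences of the 10 genes were those of CTSS and CTSB. CTSS, the cathepsin of antigen-presenting cells, had a log2 difference of 0.65 (SE 0.21), or 1.56-fold. CTSB, a broadly expressed cysteine protease, had 0.51 (SE 0.12), or 1.42-fold. None of the 15 probe sets passed at an adjusted p under 0.05 (limma, Benjamini-Hochberg over all probe sets), where 0.00418% of all probe sets did, and the lowest adjusted p of a member was 0.525. At an unadjusted p under 0.05 in limma, 2 of the 10 genes were higher (CTSB and CTSS) and 0 lower, against 4.2% and 3.07% of all genes. The stimulated and control animals did not overlap for 3 genes, CTSA, CTSB and CTSS, all higher, against 6.51% of genes higher in this way, and for 0 in the lower direction, against 6.35%. The median difference over the 10 genes was 0.19, with 7 of them above 0, beside 0.00 and 49.2% over all genes. The count at an unadjusted p was 1 without control replicate 3 or stimulated replicate 2, and the count without overlap was 5 without control replicate 2. A count without overlap cannot fall when an animal is left out. The shares of all genes were not counted with an animal left out.

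In superovulated compared with control animals the highest difference was that of LGMN at 0.41 (SE 0.18), or 1.33-fold, followed by CTSS at 0.38 (SE 0.21) and CTSA at 0.29 (SE 0.12). CTSL had the lowest at -0.33 (SE 0.38). None of the 15 probe sets passed, as none of all probe sets did (0%), and the lowest adjusted p of a member in limma was 0.801. At an unadjusted p under 0.05, 1 gene was higher (CTSA) and 0 lower, against 3.13% and 2.15% of genes. LGMN was the 1 gene whose groups did not overlap, against 5.52% of genes with higher signal in this way, and 0 members were lower without overlap, against 4.08%. The median over the 10 genes was 0.15, beside 0.01 over all genes. Of the 10 differences 9 were above 0, with that of CTSK at 0.00, against 53.2% of genes. The count at an unadjusted p was 0 without control replicate 1 or 3, stimulated replicate 3 or superovulated replicate 2, and 4 without superovulated replicate 1. The count without overlap was 4 without control replicate 2 or superovulated replicate 1 and 2 without superovulated replicate 3. That count cannot fall with fewer animals, and the shares of all genes were not counted with an animal left out. Both comparisons share the same 3 control animals.

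Superovulated and stimulated animals differed most in CTSB, at -0.32 (SE 0.12), or 0.799-fold, with a 95% interval from -0.61 to -0.04 and an adjusted p of 0.483 in limma. This is the value of its brightest probe set, and the mean of its 6 probe sets gave -0.12, smaller in size than the differences of CTSS (-0.27) and CTSL (-0.26). On its brightest probe set it was the 1 gene with a lower signal at an unadjusted p under 0.05, against 4.18% of genes, and 0 were higher, against 4.86%. These 2 groups overlapped for all 10 genes, against 7.13% of genes higher and 5.76% lower without overlap. The count of lower genes was 0 without stimulated replicate 2 or 3 or superovulated replicate 1 or 3. None of the 15 probe sets passed, where 0.00418% of all probe sets did. The median over the 10 genes was -0.03, beside 0.01 over all genes. It turned to 0.09 without stimulated replicate 2 and to 0.07 without superovulated replicate 1. A moderated F test over the 3 groups called 0 of the 15 probe sets, where 0.00418% of all probe sets were called, and gave CTSB the lowest adjusted p of 0.534. At an unadjusted p under 0.05 this test found CTSB and CTSS, 2 of the 10 genes, against 7.5% of genes.

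**Figure D1:**
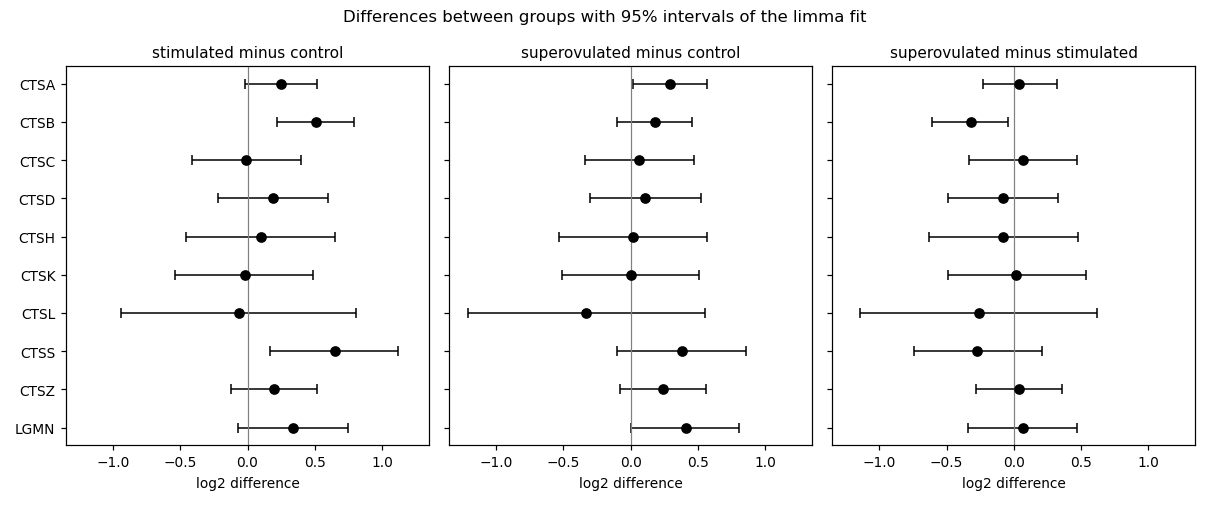
Log2 difference of each of the 10 genes (x axis) in the 3 comparisons, as points with the 95% interval of the limma fit. The intervals of CTSB (0.22 to 0.79) and CTSS (0.17 to 1.12) lie above 0 for stimulated minus control, that of CTSA (0.02 to 0.57) for superovulated minus control, and CTSL has the widest intervals.

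Among the endopeptidases of the papain family, CTSB had signals of 11.42, 11.57 and 11.36 in the control animals (replicates 1, 2 and 3). The stimulated animals had 11.815, 12.058 and 11.997, and the superovulated 11.43, 11.85 and 11.62. All 3 stimulated animals lay above all 3 controls, while superovulated replicate 1 stood level with control replicate 1. The means were 11.45 ± 0.11, 11.96 ± 0.13 and 11.63 ± 0.21 (SD, n = 3), and the difference of stimulated from control had an adjusted p of 0.525 in limma.

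CTSS works in cells that load peptides on MHC class II, where it cuts the invariant chain, and keeps its activity near neutral pH. Its signal was 11.80, 12.04 and 11.43 in control animals, 12.14, 12.66 and 12.39 in stimulated animals and 12.20, 12.36 and 11.84 in superovulated animals. Every stimulated animal lay above the highest control, and superovulated replicate 3 fell among the controls. The means were 11.75 ± 0.31, 12.40 ± 0.26 and 12.13 ± 0.27 (SD, n = 3), with adjusted p values of 0.697 for stimulated and 0.827 for superovulated against control in limma. Control replicate 3 had the lowest CTSS signal of all 9 animals.

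CTSK, known as the collagen-degrading protease of osteoclasts, had group means of 11.28 in control, 11.26 in stimulated and 11.28 in superovulated animals. Its signals were 11.23, 11.44 and 11.17 in control, 10.97, 11.56 and 11.24 in stimulated and 10.93, 11.73 and 11.18 in superovulated animals, with replicate 2 highest in each group. The log2 difference from control was -0.02 in stimulated animals, with a 95% interval from -0.54 to 0.49, and 0.00 in superovulated animals (interval -0.51 to 0.51).

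CTSL had a dim signal on this array, with a mean of 4.24 that exceeded that of 50.0% of probe sets. It measured 4.16, 4.80 and 4.14 in control, 4.18, 5.13 and 3.60 in stimulated and 4.01, 4.34 and 3.77 in superovulated animals. The stimulated animals alone spanned from the lowest to the highest value of all 9, so the groups overlapped fully. CTSV, another papain-family cathepsin, which is not among the 10, had a difference of 0.05 (SE 0.13) in stimulated and -0.14 (SE 0.13) in superovulated animals from a control mean of 11.51 ± 0.10 (SD, n = 3). Both symbols are those of the array's probe table. RefSeq's genes for Bos indicus hold CTSV and no gene with the symbol CTSL, so which of these probe sets reads the enzyme called cathepsin L in other species is not settled here.

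**Figure D2:**
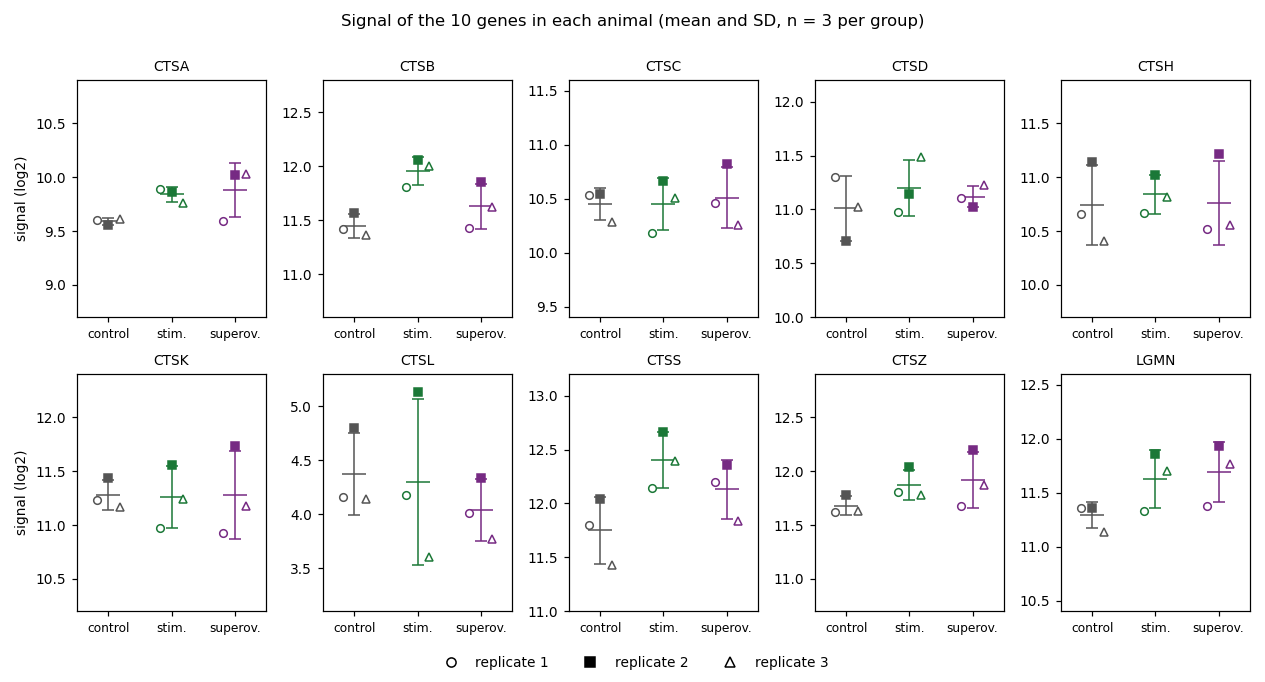
Signal (y axis, log2) of the 10 genes in each animal, with 1 panel per gene spanning the same range of 2.2 log2 units; horizontal bars are group means and whiskers the SD of 3 animals, and filled squares mark replicate 2. The 3 stimulated animals lie above all 3 controls in CTSA, CTSB and CTSS, the 3 superovulated animals in LGMN, and replicate 2 is the highest of its group in most panels.

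The exopeptidases of the same family trim the ends of proteins. CTSC, also called dipeptidyl peptidase 1, activates the serine proteases of neutrophils and killer lymphocytes. Its signal was 10.53, 10.54 and 10.28 in control, 10.18, 10.66 and 10.51 in stimulated and 10.46, 10.82 and 10.26 in superovulated animals. Its groups overlapped, with differences from control of -0.01 (95% interval -0.41 to 0.40) and 0.06 (interval -0.34 to 0.47).

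CTSH, an aminopeptidase, showed as wide a spread within groups as between them. It measured 10.66, 11.14 and 10.41 in control, 10.67, 11.02 and 10.82 in stimulated and 10.52, 11.21 and 10.56 in superovulated animals. Replicate 2 stood highest in each group. The differences from control were 0.10 (SE 0.24) and 0.02 (SE 0.24).

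CTSZ, a carboxypeptidase of phagocytes, had 11.62, 11.78 and 11.63 in control animals. Stimulated animals had 11.81, 12.04 and 11.78, and superovulated animals 11.68, 12.20 and 11.87. The lowest stimulated animal equalled the highest control to 2 decimals, and superovulated replicate 1 lay among the controls. The differences were 0.20 (SE 0.14, adjusted p = 0.876 in limma) and 0.24 (SE 0.14, adjusted p = 0.838).

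Of the proteases outside the papain family, CTSD, which begins the breakdown of many lysosomal substrates, had 11.30, 10.71 and 11.02 in control animals. Stimulated animals had 10.98, 11.14 and 11.49, and superovulated animals 11.11, 11.02 and 11.23. Control replicate 2, high for several papain-family members, had the lowest CTSD signal of all 9 animals. The differences from control were 0.19 (SE 0.18) and 0.11 (SE 0.18), within the overlap of the groups.

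CTSA, which besides its peptidase activity protects beta-galactosidase and neuraminidase in a shared complex, had nearly equal signals of 9.60, 9.56 and 9.61 in the control animals. Stimulated animals had 9.89, 9.86 and 9.76, all above the controls. Superovulated animals had 9.59, 10.02 and 10.03, with replicate 1 at the level of the controls and the other 2 above every other animal. The differences from control were 0.25 (SE 0.12, adjusted p = 0.786 in limma) and 0.29 (SE 0.12, adjusted p = 0.801). GLB1, the beta-galactosidase of that complex, differed from control by 0.52 (SE 0.18) in stimulated and 0.50 (SE 0.18) in superovulated animals. Neither treated group overlapped with control in GLB1, though the lowest stimulated animal had 9.34 against 9.33 in the highest control. NEU1, the neuraminidase, had 0.32 and 0.17 (SE 0.16 each), and its superovulated animals overlapped with control.

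LGMN had 11.36, 11.36 and 11.14 in control animals, 11.33, 11.86 and 11.70 in stimulated animals and 11.38, 11.93 and 11.77 in superovulated animals. In both treated groups replicate 1 stood at the level of the highest controls and the other 2 animals lay clearly above. The lowest superovulated animal lay just above the highest control, and the lowest stimulated animal just below it. The differences were 0.34 (SE 0.18, adjusted p = 0.820 in limma) and 0.41 (SE 0.18, adjusted p = 0.805).

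The 6 probe sets of CTSB did not give the same picture. The brightest is the one described above. The next in brightness had signals of 7.14, 7.18 and 6.83 in control, 6.99, 8.34 and 7.55 in stimulated and 7.10, 8.18 and 8.30 in superovulated animals. Its difference was 0.58 (SE 0.40) in stimulated and 0.81 (SE 0.40) in superovulated animals, so that the higher treated group was not the same as in the brightest probe set. The other 4 had mean signals from 2.78 to 5.07, and their differences from control ran from 0.01 to 0.42 in stimulated and from -0.06 to 0.16 in superovulated animals, with overlapping groups in each. With the mean of all 6 probe sets, CTSB had 0.30 in stimulated against control in place of 0.51, 0.18 in superovulated against control, as before, and -0.12 in superovulated against stimulated in place of -0.32. The probe sets' positions in the transcript were not used here.

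**Figure D3:**
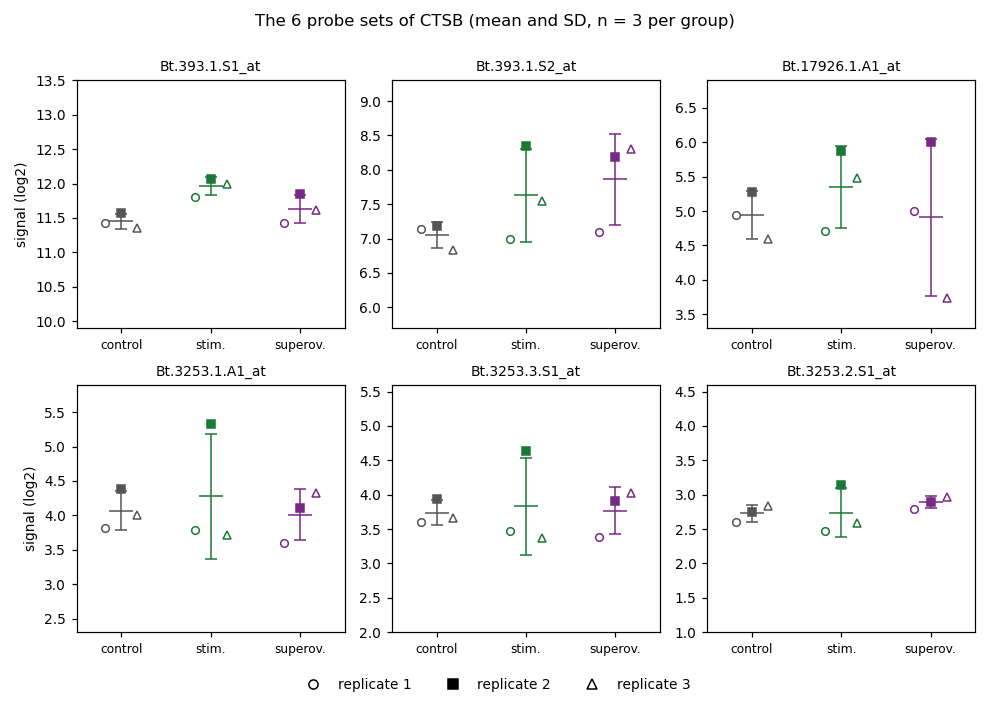
Signal (y axis, log2) of the 6 CTSB probe sets in each animal, from the brightest (top left) to the dimmest, each panel spanning 3.6 log2 units, with group means, SD of 3 animals and filled squares for replicate 2. The groups separate, for stimulated against control, in the brightest probe set, and stimulated replicate 2 stands highest among stimulated animals in all 6.

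The 10 genes also varied from animal to animal within groups. Stimulated replicate 2 had signals above the mean of all 9 animals in 10 of the 10 genes and superovulated replicate 2 in 9, while control replicate 3 had 0. The mean over the 10 genes was 10.37, 10.49 and 10.22 in control, 10.40, 10.80 and 10.53 in stimulated and 10.33, 10.75 and 10.41 in superovulated animals. Replicate 2 was the highest of its group for 7 genes in control, 8 in stimulated and 8 in superovulated animals, against 34%, 31% and 34.3% of all genes. The labels give no shared origin for animals with the same number.

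Across the 9 animals, CTSH and CTSK went together with a Pearson r of 0.85, as did CTSZ and LGMN (0.85) and CTSB and CTSS (0.84). CTSD went against CTSL (-0.60) and CTSH (-0.33). These were the highest and lowest values among all pairs of the 10 genes. They hold differences between groups and between animals together. The 4558 other genes with a signal above the median of genes were searched for the most similar patterns, which are given as descriptions. Those closest to the mean of the 10 genes were RNF130, MPZL1 and HBP1 (r = 0.95 each), USP46 (0.94) and RNF44 (0.92). RNASE6, a ribonuclease of leukocytes, was closest to CTSS (0.97), CD36, a scavenger receptor, to CTSB (0.94), and GRN, the lysosomal protein progranulin, to LGMN (0.96). The closest to CTSA was UBL7 (0.95), to CTSD ANXA4 (0.95), to CTSK PTPN13 (0.96) and to CTSZ MXRA8 (0.97). For CTSC it was LOC100301250 (0.92), for CTSH GGCX (0.92) and for CTSL DUSP12 (0.91). These are the highest values of a search over many genes with 9 animals each.

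Several lists of cell type markers had the same highest animal within groups as the 10 genes. Fibroblast and pericyte markers (means of 10.86, 10.97 and 11.38) and endothelial markers (7.91, 7.93 and 7.65) were highest of their group in replicate 2 of control, stimulated and superovulated animals, as the mean of the 10 genes was, and luteal steroidogenic markers were lowest of their group there (12.45, 12.42 and 12.36). Some of these leads were small. Control replicate 3, the lowest animal for the 10 genes, had 10.85 for fibroblast and pericyte markers, and superovulated replicate 1 had 7.63 for endothelial markers. Macrophage markers were also highest in replicate 2 of each group. Of 28 listed markers 19 were on the array, and their mean signal was 5.01, 5.27 and 4.27 in control, 5.59, 6.67 and 6.11 in stimulated and 5.41, 6.39 and 5.41 in superovulated animals. The animals with the highest macrophage values in the treated groups, replicate 2 of each, and the lowest of all, control replicate 3, were also those with the highest and lowest means of the 10 genes. All 19 had a positive difference in stimulated against control (median 1.43), and 17 in superovulated against control (median 0.83), beside 49.2% and 53.2% of all genes. None passed at an adjusted p under 0.05 in limma. At an unadjusted p under 0.05, 12 and 6 were higher, against 4.2% and 3.13% of all genes, and 0 lower, and 1 of the 19 had a signal below the lower quartile of the array. CD68, a lysosomal membrane protein of macrophages, had 5.32, 5.38 and 4.57 in control, 6.14, 7.86 and 7.41 in stimulated and 5.59, 7.56 and 6.27 in superovulated animals. Both treated groups lay above the controls in CD68. Between superovulated and stimulated animals, 3 of the 19 markers were above 0 (median -0.29), beside 53.2% of all genes. At an unadjusted p under 0.05 in limma 4 were lower and 0 higher, against 4.18% and 4.86% of all genes. FCGR3A had the smallest p of the list, at a dim control signal of 3.39 ± 0.25 (SD, n = 3). Its differences from control were 1.08 in stimulated and 0.18 in superovulated animals (SE 0.14 each). LYZ2, on the brightest of its 4 probe sets, had 1.95 and 1.79 (SE 0.36 each). Whether LYZ2 marks macrophages in cattle was not checked here. AIF1 had differences of 1.73 (SE 0.36, adjusted p = 0.460 in limma) and 1.63 (SE 0.36, adjusted p = 0.639), and CSF1R, the receptor of the macrophage growth factor, had a dim signal of 3.89 ± 0.19 in control and 4.85 ± 0.70 in stimulated animals (SD, n = 3). CD14 ranged from 3.56 to 6.78 among the controls alone. The part of any of these cells in the cathepsin signals was not tested. Luteal steroidogenic markers had median differences of -0.01 and -0.09, with 4 and 1 of 10 genes above 0, beside 49.2% and 53.2% of all genes. HSD3B1 had -0.17 (SE 0.08) in superovulated animals, all of which lay below every control.

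**Figure D4:**
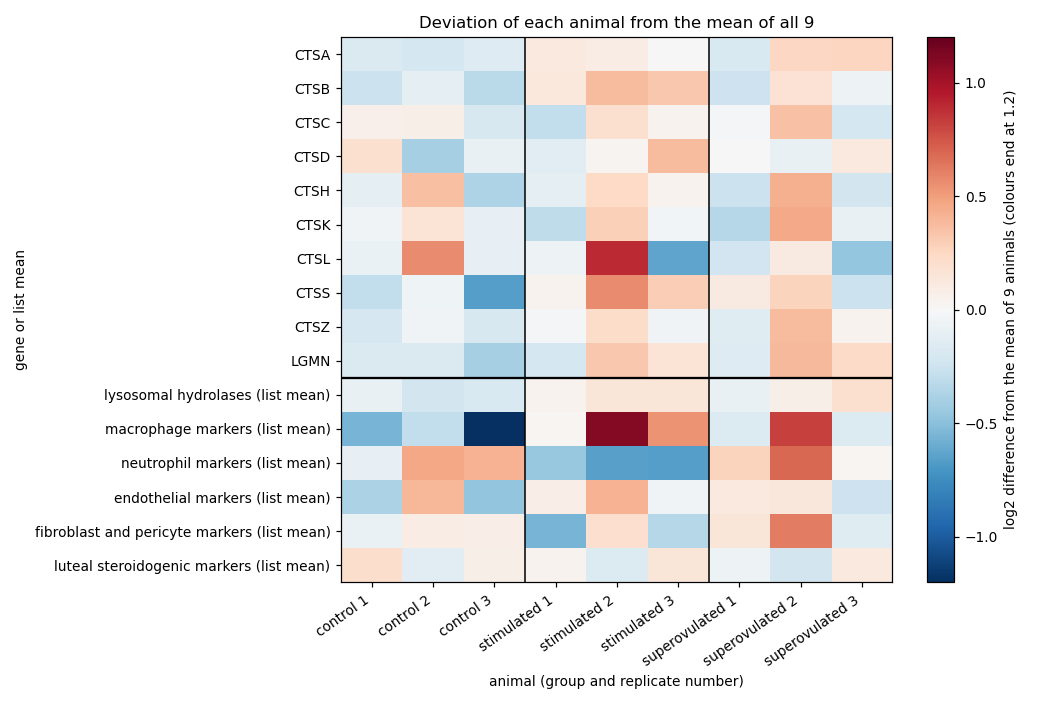
Deviation of each animal (columns, 3 groups of 3) from the mean of all 9 for the 10 genes (upper rows) and for the mean of 6 gene lists (lower rows), in log2 units with red above and blue below the mean; colours end at 1.2. Stimulated replicate 2 is above the mean in all 10 genes and control replicate 3 below it in all 10, and the macrophage list has 6.67 and 4.27 in these animals against a control mean of 4.85.

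Other hydrolases of the lysosome, which break down sugars, lipids and nucleic acids, had positive differences in 22 of 25 measured genes for stimulated against control (median difference 0.27). For superovulated against control 21 of the 25 were positive (median 0.16), beside 49.2% and 53.2% of all genes in these comparisons. None passed at an adjusted p under 0.05, and 6 and 4 were higher at an unadjusted p under 0.05 with 0 lower, against the 4.2% and 3.13% of all genes. MAN2B1, the lysosomal alpha-mannosidase, had 6.34, 5.93 and 6.32 in control, 7.51, 7.20 and 8.07 in stimulated and 8.04, 7.09 and 7.55 in superovulated animals. No treated animal overlapped with a control, and the differences of 1.40 (SE 0.29, adjusted p = 0.460 in limma) and 1.36 (SE 0.29, adjusted p = 0.639) were the highest of the list. TPP1, a tripeptidyl peptidase, had 0.33 and 0.40 (SE 0.13 each) at a dim signal of 2.94 ± 0.04 in control (SD, n = 3).

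Further cathepsins measured were CTSF, CTSV and CTSW. CTSF, a lysosomal cysteine protease, had 10.40, 10.05 and 9.85 in control, 11.09, 10.70 and 11.18 in stimulated and 10.76, 9.59 and 10.69 in superovulated animals. All stimulated animals lay above the controls (difference 0.89, SE 0.32, adjusted p = 0.716 in limma), and the superovulated animals spanned the range of the controls and beyond. CTSW, a cathepsin of killer lymphocytes, had differences of 0.24 and 0.01 (SE 0.13 each) at a low signal, 2.98 ± 0.05 in control (SD, n = 3). None of the 3 passed.

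A list of protease inhibitors held 5 measured genes, the cystatins CST3 and CST6 and the serpins SERPINB1, SERPINB6 and SERPINB9. Of these 5 genes 3 were above 0 in each treated group, against 49.2% and 53.2% of all genes. The medians were 0.02 and 0.09, and none passed. The serpins were the genes above 0, and both cystatins were below 0 in each treated group. CST6 had -0.13 and -0.26 (SE 0.26 each). CST3, the secreted inhibitor cystatin C, had -0.04 (SE 0.08) in stimulated and -0.12 (SE 0.08) in superovulated animals from a control signal of 12.59 ± 0.04 (SD, n = 3), and its superovulated values lay below those of every control. SERPINB1, an inhibitor of neutrophil proteases, had 9.42, 9.34 and 9.69 in control and 9.82, 9.98 and 9.91 in superovulated animals, a difference of 0.42 (SE 0.11, adjusted p = 0.718 in limma) without overlap. SERPINB9, an inhibitor of granzyme B, had 0.23 and 0.33 (SE 0.08 each) at a dim signal of 2.95 ± 0.04 in control (SD, n = 3). Of 9 measured genes of sorting to the lysosome 6 and 7 were above 0, against 49.2% and 53.2% of all genes. Their medians were 0.14 and 0.04, and none passed. Of the mannose 6-phosphate receptors, M6PR had 0.09 (SE 0.08) and 0.04 (SE 0.08), and IGF2R had 0.25 (SE 0.09, adjusted p = 0.717) and 0.12 (SE 0.09). GNPTAB, which begins the synthesis of the mannose 6-phosphate tag, had 0.49 (SE 0.34) and 0.36 (SE 0.34), and NAGPA, which uncovers it, had 0.19 and 0.38 (SE 0.27 each).

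Of 16 genes of the lysosomal membrane and of cofactors 12 were above 0 in each treated group, with medians of 0.14 and 0.08. Of 16 proton pump subunits, which acidify the lysosome, 7 and 6 were above 0, with medians of -0.01 and -0.02. Of all genes 49.2% were above 0 in stimulated and 53.2% in superovulated animals. No gene of either list passed. LAMP1, an abundant membrane glycoprotein of the lysosome, had -0.12 (SE 0.12) and 0.07 (SE 0.12), and LAMP2, its relative, 0.16 (SE 0.13) and -0.05 (SE 0.13). NPC1, which exports cholesterol from lysosomes, had 0.29 (SE 0.15) and 0.15 (SE 0.15), and PSAP, the precursor of the saposins, had 0.17 (SE 0.16) and 0.20 (SE 0.16). GRN had 0.47 (SE 0.20) and 0.45 (SE 0.20). The pump subunit ATP6V0A2 had 0.22 (SE 0.12) and 0.17 (SE 0.12).

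TFEB, the transcription factor that drives lysosomal genes, had a dim signal of 3.74 ± 0.13 in control, 3.84 ± 0.11 in stimulated and 4.02 ± 0.32 in superovulated animals (SD, n = 3). Its differences of 0.10 (SE 0.16) and 0.27 (SE 0.16) were within the overlap of the groups. RRAGC, a GTPase that signals amino acid supply at the lysosome, had 10.02, 9.77 and 9.89 in control, 10.21, 10.17 and 10.28 in stimulated and 9.90, 10.12 and 9.96 in superovulated animals. Its stimulated values lay above those of every other animal, with an adjusted p of 0.604 against control in limma. RRAGD, its relative, had -0.16 and 0.12 (SE 0.16 each). Of the 7 regulators measured 5 were above 0 in stimulated and 4 in superovulated animals, against 49.2% and 53.2% of all genes.

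**Figure D5:**
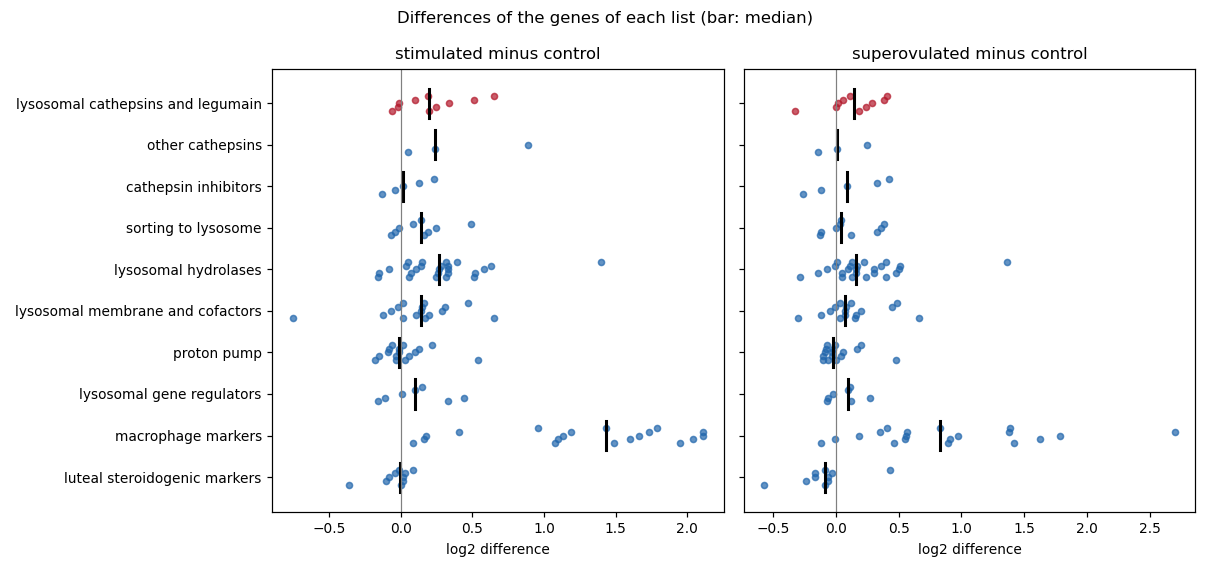
Log2 difference from control (x axis) of each gene of 10 lists (rows) in stimulated and superovulated animals, with a bar at the median of each list. The medians of the 10 cathepsin and legumain genes (red) are 0.19 and 0.15, those of other lysosomal hydrolases 0.27 and 0.16 and those of macrophage markers 1.43 and 0.83, while proton pump subunits and luteal markers centre near 0.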

How the data were processed

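Luteal total RNA, 1 sample per cow, was hybridised to Affymetrix bovine arrays, per the labels. The authors deposited 1 table of 24128 probe sets by 9 arrays in which each value is a run of digits without its decimal mark. How probes were summarised and arrays normalised is not given in the sources used here, and neither is the log base. Values were read as log2 signals below 16. Runs that start with 1 (15.5% of cells could be read in 2 ways) were settled by the other arrays of the probe set (1588 probe sets), or, where all 9 were open, by their spread and mean at a probability of 0.95 (2951 bright, 1 dim, 79 left out, 2.0 wrong readings expected). After removal of 112 array controls 23940 probe sets remained. Array medians were 4.18 to 4.25, and no further normalisation was applied. The number of arrays limits the precision.

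Symbols came from the probe table, and 9 of the 10 members, all but CTSL, were also found by symbol among RefSeq's genes for Bos indicus, where no coordinates were taken. No sequences are shown. The probe set with the highest mean stood for a gene. Groups were compared with limma 3.58.1 (R 4.3.3; lmFit and eBayes on all 9 arrays, 1 mean per group, 6 residual degrees of freedom, 2-sided, Benjamini-Hochberg over all probe sets), tested on simulated data. The labels call the 9 samples biological replicates of 3 groups. The members, 15 gene lists and the naming rule were chosen with earlier results of these data known. The rule takes the 10 members, up to 3 genes per list, by smallest p over the comparisons, and some fixed lysosomal, macrophage and luteal genes. It also takes the genes with the highest Pearson r to the members. Some genes that it takes, among them FLT1, NKG7 and PDGFRA, are not described. CST6, SERPINB6, KRT19, NEU1, LHCGR, NR5A1, MPO, CXCR1, CAMP, FCN1 and ELANE were named outside it. Alternatives were quantile normalisation, a filter on dim probe sets, restriction to unambiguous runs, fits on the 2 groups alone, eBayes with trend and robust, the replicate number as a block, the mean of a gene's probe sets, and leaving out each array. Leaving out arrays for the counts at an unadjusted p and without overlap was added after the data were seen.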

Additional observations from a re-analysis of the deposited data

How the results depend on the processing

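No member probe set passed at an adjusted p under 0.05 in limma in any comparison or in the F test under any alternative run. Without 1 array in turn the median over the 10 genes was 0.17 to 0.27 for stimulated minus control, 0.09 to 0.23 for superovulated minus control and -0.15 to 0.09 for superovulated minus stimulated, the last being the 1 median that changed sign. Leaving out 1 array gave 1 to 3 genes higher at an unadjusted p in stimulated against control. It gave 0 to 4 higher in superovulated against control and 0 to 1 lower in superovulated against stimulated. Without overlap the counts against control were 3 to 5 for stimulated and 1 to 4 for superovulated animals. A count without overlap can only stay or rise with fewer animals, so its range does not test whether it holds. The shares of all genes were not counted with 1 array left out. Single genes also changed sign in this way. For stimulated minus control the ranges were -0.11 to 0.13 for CTSC, -0.07 to 0.30 for CTSH, -0.18 to 0.12 for CTSK and -0.48 to 0.29 for CTSL. For superovulated minus control they were -0.09 to 0.19 for CTSC, -0.04 to 0.25 for CTSD, -0.20 to 0.22 for CTSH and -0.23 to 0.18 for CTSK. For superovulated minus stimulated they were -0.03 to 0.19 for CTSA, -0.08 to 0.19 for CTSC, -0.19 to 0.06 for CTSD, -0.30 to 0.05 for CTSH, -0.20 to 0.20 for CTSK, -0.61 to 0.15 for CTSL, -0.10 to 0.16 for CTSZ and -0.08 to 0.22 for LGMN. Values that kept their sign also moved: for superovulated minus control CTSS ranged from 0.22 (without control replicate 3) to 0.53, CTSA from 0.21 to 0.43, CTSB from 0.07 to 0.28, CTSZ from 0.10 to 0.36, LGMN from 0.29 to 0.56 and CTSL from -0.48 to -0.11, for superovulated minus stimulated CTSB from -0.43 to -0.22 and CTSS from -0.39 to -0.12, and for stimulated minus control CTSA from 0.22 to 0.29, CTSB from 0.45 to 0.58, CTSD from 0.04 to 0.34, CTSS from 0.48 to 0.79, CTSZ from 0.12 to 0.25 and LGMN from 0.23 to 0.49. No other alternative reversed a gene's sign. With the replicate number as a block 0 member probe sets passed and the medians stayed at 0.19, 0.15 and -0.03, while the count over all probe sets for stimulated against control went from 1 to 3. The numbers are not shown to pair the animals, since correlations of same-numbered arrays ran from -0.031 to 0.38, with 8 of 9 above 0, and those of other arrays from -0.35 to 0.25. The best partner over both other groups carried the same number for 6 of 9 arrays, and the best in each of the other groups for 5. On unambiguous digit runs alone, CTSL and the 5 dimmer CTSB probe sets remained, so no median was taken there. The background of the array was not measured here.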

Other observations

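Neutrophil markers were above 0 in 2 of 10 genes for stimulated and in 6 for superovulated against control, beside 49.2% and 53.2% of all genes. Their medians were -0.49 and 0.06. In stimulated animals 3 had a lower and 1 a higher signal at an unadjusted p under 0.05 in limma, against 3.07% and 4.2% of all genes. Of the 10 markers 3 had a signal below the lower quartile of the array. The list had a mean signal of 4.33, 4.13 and 4.12 in stimulated animals, below 4.68 to 5.25 in control and 4.81 to 5.47 in superovulated animals. That lower mean rests largely on S100A9 and S100A8, which had the largest differences of the list. MPO (-0.05), CXCR1 (-0.16) and CAMP (-0.02) differed little from control in stimulated animals, at dim signals. S100A9, a subunit of calprotectin, had log2 differences of -3.57 (SE 0.61, adjusted p = 0.372 in limma) in stimulated and 0.68 (SE 0.61) in superovulated animals from control, and S100A8, its partner, had -2.39 in stimulated animals. MMP9, a gelatinase, had -1.42 and -1.05. FCN1 (1.04) and ELANE (0.18), named after their values were seen, were above 0 in stimulated animals. ELANE had a dim signal of 2.38 ± 0.05 in control (SD, n = 3). Fibroblast and pericyte markers were above 0 in 1 of 11 genes for stimulated and in 10 of 11 for superovulated against control, beside 49.2% and 53.2% of all genes. Their medians were -0.08 and 0.14. T and NK cell markers were above 0 in 13 of 15 genes for stimulated and in 9 for superovulated against control. Their medians were 0.40 and 0.03 at mean signals between 3.10 and 4.20. Dendritic and B cell markers were above 0 in 6 and 4 of 7 genes, with medians of 0.20 and 0.00. Among them BOLA-DMB, a chaperone of MHC class II, had 1.18 (SE 0.29) and 0.32 (SE 0.29). Endothelial markers were above 0 in 12 and 9 of 12 genes, with medians of 0.21 and 0.19. Epithelial markers were above 0 in 4 and 7 of 9 genes, with medians of -0.05 and 0.07. These counts stand beside the same 49.2% and 53.2% of all genes. None of these genes passed at an adjusted p under 0.05 in limma.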
